A study of Mus musculus with 12 samples.

Results

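Genes of tissue remodelling were followed in eosinophils of the mouse small intestine (SI). The 10 genes, Thbs1, Fn1, Vcan, Plau, Plaur, Mmp25, Timp1, Timp2, Hbegf, and Areg, were taken by symbol, out of 36047 genes in the table. All 10 had a row, and 9 of them were among the 15249 genes tested, the exception being Timp1, which was below the minimum mean normalized count of 10. The cells came from the proximal SI lamina propria of wild-type C57BL/6J mice and were sorted as live CD45+ CD11b+ SiglecF+ MHCII− Ly6G− eosinophils, then separated by surface staining into α4β7+, α4β7− CD22−, and CD22+ subsets (a4b7+, a4b7- CD22-, and CD22+ in the labels), which the study takes as approximately younger, intermediate, and older cells. α4β7 is an integrin that guides leukocytes to the gut, and CD22 is a lectin. Each subset has 4 libraries of total RNA, each made from 2 pooled mice. The labels give these mice as female, while the study's methods speak of mice of both sexes between 6 and 12 weeks of age over all experiments. No mouse received a treatment, and the subsets are sorted populations and not the same cells followed over time.

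Thrombospondins, fibronectin, and versican are proteins of the extracellular matrix, the meshwork in which lamina propria cells sit. The matrix is remodelled by metalloproteinases, which the TIMP proteins inhibit, and by plasmin, which urokinase releases from plasminogen at the cell surface once it is bound to its receptor. Ligands of the epidermal growth factor (EGF) receptor are shed from the cell membrane and act on epithelial repair, and eosinophils are known as a source of several of these proteins in damaged or inflamed mucosa.

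The normalized counts of a library summed to between 14286474 and 16915755, from an estimated 13858261 to 17321909 reads, so that a floor of 3 reads lay at 2.56 to 3.48 normalized counts. The floor covers counting error only. In such bulk libraries, fewer cells of a type and less RNA per cell cannot be told apart. All 13 eosinophil marker genes had a mean above 10 normalized counts, and Siglecf, which encodes the lectin used in the sort, had means of 7534, 7827, and 7340 in α4β7+, α4β7− CD22−, and CD22+ eosinophils. Other eosinophil markers moved with the subsets. Of the 13, 5 were lower in α4β7− CD22− than in α4β7+ eosinophils (Prg2, Ccr3, Ear1, Ear6, and Alox15), 8 were lower in CD22+ than in α4β7+ eosinophils (Epx, Il5ra, and Ear2 in addition), and Clec4a4 was higher in both comparisons, with median log2 fold changes of −0.33 and −1.10. The call of Ear6 in α4β7− CD22− was lost with no filter, without the trend, without any of the α4β7+ replicates in turn, and without α4β7− CD22− replicate 4. In the same comparison, Ccr3 and Alox15 did not reach the fold change with quantile normalization, at log2 fold changes of −0.535 and −0.584. Only Alox15 of the 13 was called between CD22+ and α4β7− CD22− eosinophils. The summed level of the 13 was 73389 to 90583 in α4β7+, 55697 to 63447 in α4β7− CD22−, and 43344 to 47219 in CD22+ libraries, falling in the same direction as Thbs1 and Hbegf below, and its part in their differences was not tested. The Cd22 gene had means of 1115, 4462, and 13330 normalized counts in the same order. It was highest in CD22+ eosinophils, but α4β7− CD22− eosinophils, sorted as negative for the protein, had more of its RNA than α4β7+ eosinophils. Itgb7, the β7 integrin, was highest in α4β7+ eosinophils, with means of 2526, 220, and 156.

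A gene was called where its fold change was at least 1.5 and its adjusted p at most 0.05 (limma with Benjamini-Hochberg adjustment over all genes tested). Between α4β7− CD22− and α4β7+ eosinophils, 3 of the 9 genes tested were called, Plaur higher and Thbs1 and Hbegf lower in α4β7− CD22−, where 8.05% of all genes tested were called (3.7% higher and 4.35% lower). The same 3 genes were called in the same directions between CD22+ and α4β7+ eosinophils, against 12% of all genes (5.6% higher and 6.39% lower). Thbs1 alone of the 9 was called between CD22+ and α4β7− CD22− eosinophils, lower in CD22+, where 0.603% of all genes were called (0.21% higher and 0.393% lower). The median log2 fold changes of the 9 genes in these comparisons were −0.41, −0.37, and −0.17, beside 0.00305, 0.0138, and −0.00144 over all genes tested. The first and second comparisons share the α4β7+ libraries. The p-values set a difference between subsets against the spread between libraries, which are pools of mice.

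**Figure D1:**
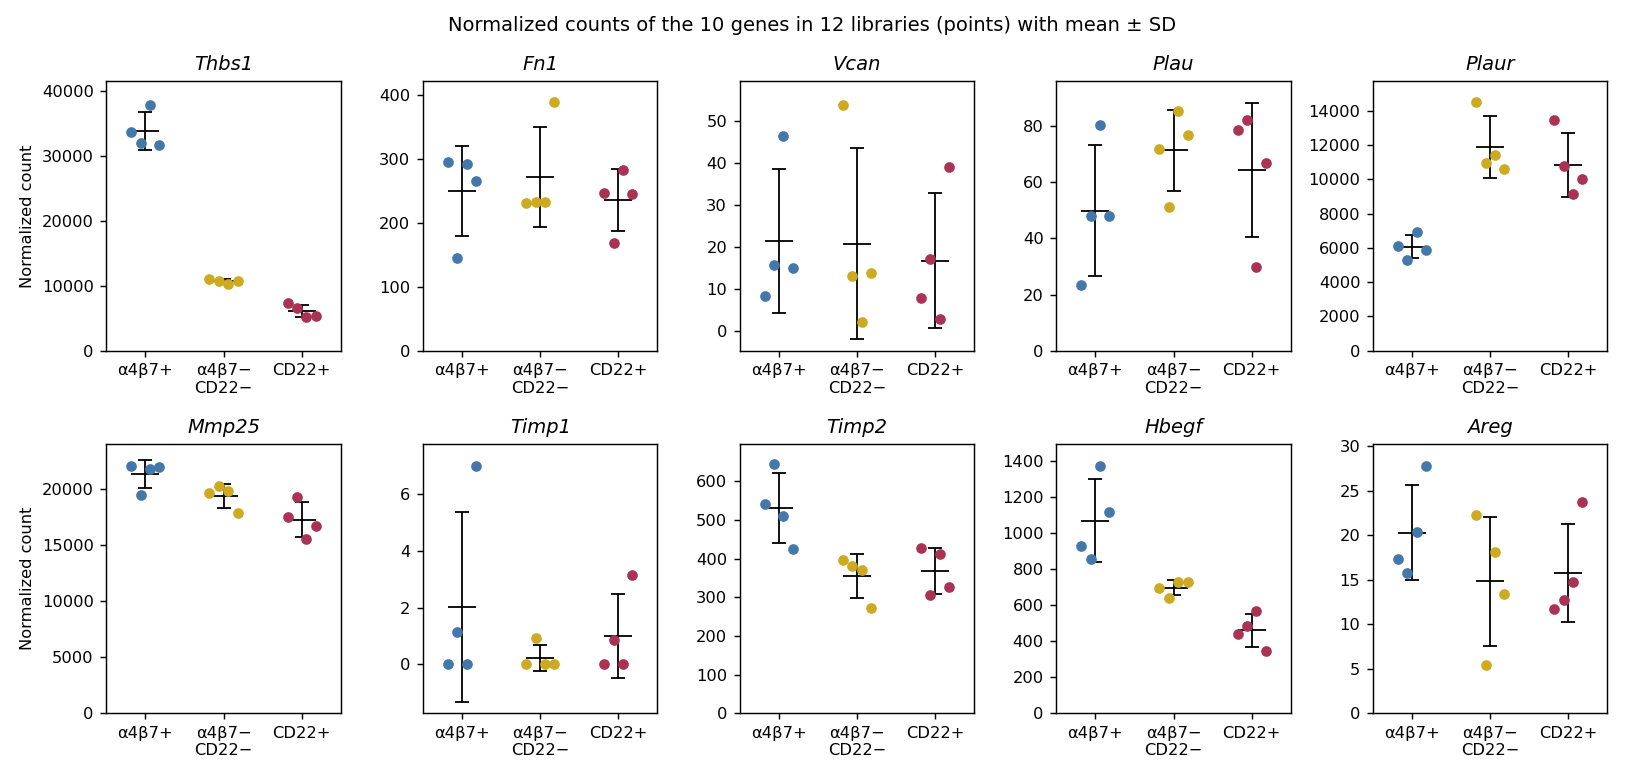
Normalized counts (y axis, linear) of the 10 genes in each of the 12 libraries (points) of the 3 subsets (x axis), with horizontal bars at the mean and error bars of 1 SD over the 4 libraries of a subset. Thbs1 falls from a mean of 33748 in α4β7+ to 6100 in CD22+ eosinophils without overlap, Plaur sits higher in both other subsets than in α4β7+ eosinophils, and the points of Fn1, Vcan, Plau, Timp1, and Areg overlap between subsets.

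**Figure D2:**
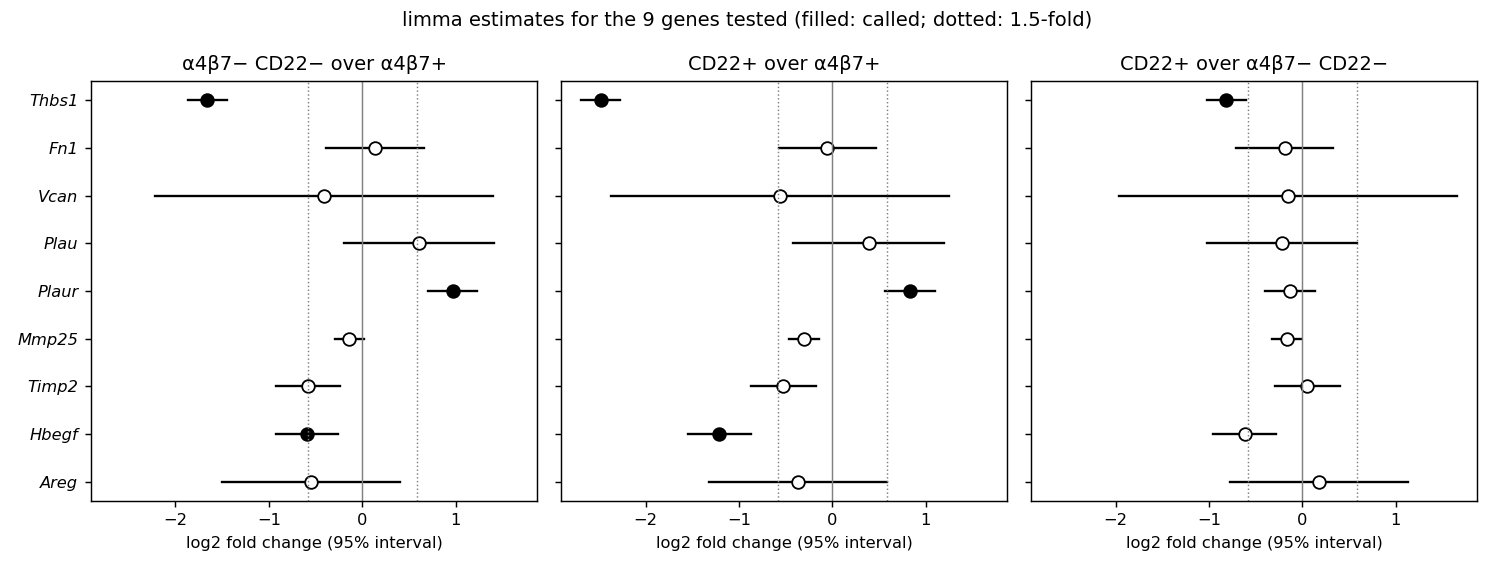
Log2 fold change with its 95% interval (x axis) from limma for the 9 genes tested (rows), in each of the 3 comparisons (panels). Filled points mark called genes and dotted lines a fold change of 1.5, and the intervals of Vcan are the widest of the 9, from −2.22 to 1.40 between α4β7− CD22− and α4β7+ eosinophils.

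Thbs1 encodes thrombospondin 1, a secreted glycoprotein that binds CD47, CD36, and matrix proteins and is known to activate latent TGF-β. The gene lies on the plus strand of chromosome 2 of GRCm38, from 118111876 to 118127133. Its normalized counts were 33639, 31883, 37846, and 31626 in α4β7+ replicates 1 to 4. They were 10968, 10669, 10237, and 10722 in α4β7− CD22− eosinophils, and 7298, 6535, 5230, and 5338 in CD22+ eosinophils. Every α4β7+ library was above every α4β7− CD22− library, and every α4β7− CD22− library above every CD22+ library. Thbs1 made up between 0.194% and 0.240% of the summed normalized counts of the α4β7+ libraries, and between 0.0366% and 0.0495% of those of the CD22+ libraries.

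The means of Thbs1 were 33748 ± 2875, 10649 ± 304 and 6100 ± 994 (SD, n = 4 each). Thbs1 was 3.16-fold lower in α4β7− CD22− than in α4β7+ eosinophils, a log2 fold change of −1.66 (95% interval −1.87 to −1.45, limma adjusted p = 5.38e-08). In CD22+ eosinophils it was 5.57-fold lower than in α4β7+ (log2 fold change −2.48, 95% interval −2.69 to −2.27, adjusted p = 4.06e-10). The remaining difference between CD22+ and α4β7− CD22− was 1.76-fold (log2 fold change −0.82, 95% interval −1.03 to −0.61, adjusted p = 0.000536). More of the decline therefore lay between α4β7+ and α4β7− CD22− eosinophils, and the difference between the log2 changes of both steps was itself called (0.84, standard error 0.169, adjusted p = 0.0244), as it was for 1.18% of all genes (0.544% with a positive and 0.636% with a negative difference). This difference between steps was examined only after the data were seen, and its dependence on the settings was not examined. Of the 15249 genes tested, 207 had a lower log2 fold change than Thbs1 in the first step and 272 in the second.

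The other matrix genes of the set, Fn1 and Vcan, showed no such pattern. Fn1, on chromosome 1 from 71585520 to 71653200, encodes fibronectin, an adhesive matrix glycoprotein bound by integrins. Its normalized counts ranged from 146 to 295 in α4β7+, from 232 to 390 in α4β7− CD22−, and from 169 to 283 in CD22+ eosinophils, and the subsets overlapped in every comparison. The means were 250 ± 70.8, 272 ± 78.8, and 236 ± 48.3 (SD, n = 4 each), and CD22+ differed from α4β7+ by −0.05 on the log2 scale (95% interval −0.57 to 0.47, adjusted p = 0.913). Vcan, on chromosome 13 from 89655312 to 89742509, encodes versican, a large chondroitin sulfate proteoglycan. It ranged from 8.39 to 46.6 normalized counts in α4β7+, from 2.31 to 54.0 in α4β7− CD22−, and from 2.85 to 39.2 in CD22+ eosinophils. With an SD of between 79.6% and 109% of the mean in each subset, Vcan passed the test in no comparison (CD22+ over α4β7+, 95% interval of the log2 fold change −2.37 to 1.25).

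Among 39 genes of matrix and matricellular proteins that were tested, 4 were lower and none higher in α4β7− CD22− than in α4β7+ eosinophils, and 5 were lower and none higher in CD22+ eosinophils. The median log2 fold changes of the list were −0.19 and 0.28, so that the genes called and the median of the list had opposite signs in the second comparison. Besides Thbs1, the genes lower in both comparisons were Tgfbi, Lgals3, and Emilin2. Tgfbi, a matrix adhesion protein induced by TGF-β, had 5395 ± 295, 2362 ± 154, and 2285 ± 172 normalized counts in α4β7+, α4β7− CD22−, and CD22+ eosinophils, and its log2 fold change of −1.19 (adjusted p = 1.07e-07) in the first step was followed by one of −0.05 (adjusted p = 0.909). Lgals3, which encodes the sugar-binding protein galectin 3, had means of 2555 ± 276, 1176 ± 296, and 638 ± 155, and was lower by −1.14 and −2.02 on the log2 scale than in α4β7+ eosinophils (adjusted p = 0.000401 and 8.73e-07). Emilin2, an elastin-associated glycoprotein, had 2377 ± 392, 1556 ± 155, and 1082 ± 201 normalized counts, and its call in α4β7− CD22− (log2 fold change −0.60, adjusted p = 0.00956) was lost with no filter and without α4β7+ replicate 1 or 3 or α4β7− CD22− replicate 1 or 4. The fifth gene lower in CD22+ than in α4β7+ eosinophils was Srgn, with 37338 ± 3171 and 21390 ± 1109 normalized counts (log2 fold change −0.80, adjusted p = 8.79e-06), which did not reach the fold change with quantile normalization (−0.50). Srgn encodes serglycin, a proteoglycan stored in granules rather than a structural part of the matrix. Between CD22+ and α4β7− CD22− eosinophils, Thbs1 and Lgals3 were called of the 39 (Lgals3 adjusted p = 0.0245), and the call of Lgals3 was lost in 4 of the other settings and without α4β7− CD22− replicate 1, 2, or 4 or CD22+ replicate 2, 3, or 4.

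Plaur encodes uPAR, the membrane-anchored receptor that holds urokinase at the cell surface. It lies on the plus strand of chromosome 7, from 24462484 to 24475968. Its normalized counts were 6134, 5283, 6907, and 5898 in α4β7+ replicates 1 to 4, then 14527, 10971, 11434, and 10604 in α4β7− CD22− eosinophils, and 13441, 10792, 9125, and 10041 in CD22+ eosinophils. Every library of the latter subsets was above every α4β7+ library, while α4β7− CD22− and CD22+ overlapped. The means were 6056 ± 671, 11884 ± 1794, and 10850 ± 1857 (SD, n = 4 each).

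Plaur was 1.96-fold higher in α4β7− CD22− than in α4β7+ eosinophils (log2 fold change 0.97, 95% interval 0.70 to 1.23, limma adjusted p = 8.59e-05). In CD22+ eosinophils it was 1.78-fold higher than in α4β7+ (log2 fold change 0.83, 95% interval 0.57 to 1.10, adjusted p = 0.000172). The difference of −0.13 between CD22+ and α4β7− CD22− did not pass the test (95% interval −0.40 to 0.13, adjusted p = 0.831). The difference between the log2 changes of both steps, examined only after the data were seen, was −1.10 (standard error 0.214, limma adjusted p = 0.0196).

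RefSeq promoter windows of GRCm38.p6, taken as the 250 bases before the annotated start, were given for 6 of the 10 genes, Plaur, Mmp25, Timp1, Timp2, Areg, and Vcan. The windows of Plaur and Mmp25 are shown, since these had the highest levels per kb of transcript of the 6 and since Plaur was called and Mmp25 was not. Both are written 5′ to 3′ on the strand of the gene, at chr7:24462233-24462482 (plus strand) for Plaur and chr17:23645278-23645519 (minus strand, without the bases that lie inside the annotated transcript) for Mmp25. Capitals mark matches, on either strand, to TGANTCA (bound by AP-1 factors), TGACGTCA (bound by CREB and related factors), GGGCGG (the GC box bound by Sp1), and GCGTG (the core bound by the aryl hydrocarbon receptor), and the matches to GGGCGG in Plaur lie next to each other or share a base.
Plaur: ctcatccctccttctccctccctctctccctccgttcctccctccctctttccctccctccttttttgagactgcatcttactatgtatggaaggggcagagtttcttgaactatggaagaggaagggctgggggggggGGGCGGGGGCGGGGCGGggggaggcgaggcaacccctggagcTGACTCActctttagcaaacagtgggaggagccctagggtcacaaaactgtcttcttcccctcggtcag
Mmp25: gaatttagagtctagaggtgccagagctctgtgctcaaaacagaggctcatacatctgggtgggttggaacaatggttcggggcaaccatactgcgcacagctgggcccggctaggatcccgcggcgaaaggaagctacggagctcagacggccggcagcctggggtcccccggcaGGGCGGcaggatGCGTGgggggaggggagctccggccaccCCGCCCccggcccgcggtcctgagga
The Plaur window holds 1 match to TGANTCA, at base −69 from the start, and is the only 1 of the 6 windows that does. Of 32851 windows of this length over all annotated starts, 6.75% hold TGANTCA, 1.55% hold TGACGTCA, 32.7% hold GGGCGG, and 28.2% hold GCGTG. TGACGTCA occurs in the Areg window, at base −61, and in no other of the 6, while GGGCGG occurs in all 6. A match describes the sequence and does not show that a factor is bound there.

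Plau, the gene of urokinase itself, on chromosome 14 from 20836660 to 20843385, was low throughout. It ranged from 23.4 to 80.3 normalized counts in α4β7+, from 51.2 to 85.4 in α4β7− CD22−, and from 29.9 to 82.2 in CD22+ eosinophils, and the subsets overlapped. The means were 49.9 ± 23.3, 71.4 ± 14.5, and 64.4 ± 23.9, with a log2 fold change of 0.61 in α4β7− CD22− over α4β7+ eosinophils (95% interval −0.20 to 1.41, adjusted p = 0.332). Per kb of transcript, the receptor exceeded its ligand by a factor of 226 ± 123, 268 ± 65.5, and 295 ± 122 in α4β7+, α4β7− CD22−, and CD22+ eosinophils.

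Of 14 tested genes of plasminogen activation, Plaur was the 1 called higher in each comparison with α4β7+ eosinophils, and the genes called lower numbered 2 for α4β7− CD22− and 4 for CD22+. The median log2 fold changes of the list were −0.33 and −0.16. Plasminogen receptor genes were among those called lower. S100a10, which forms a plasminogen-binding complex with annexin A2, had 1329 ± 156, 444 ± 27.3, and 261 ± 44.8 normalized counts in α4β7+, α4β7− CD22−, and CD22+ eosinophils, and was called in all 3 comparisons (log2 fold changes −1.57, −2.35, and, between CD22+ and α4β7− CD22−, −0.78 with an adjusted p of 0.00641, or 0.0576 with no filter). Eno1, a glycolytic enzyme that also binds plasminogen at the cell surface, had 9128 ± 704, 3377 ± 183, and 2235 ± 160 normalized counts and was called in all 3 comparisons as well. In CD22+ against α4β7− CD22− eosinophils its log2 change of −0.60 did not reach the fold change with quantile normalization or without α4β7− CD22− replicate 1 or CD22+ replicate 1 or 3. Anxa2, the annexin itself, was called in CD22+ against α4β7+ eosinophils, with 403 ± 76.7 against 626 ± 75.4 normalized counts (log2 fold change −0.65, adjusted p = 0.00247), and did not reach the fold change without CD22+ replicate 2 (−0.54). Serpinb2, which encodes PAI-2, an inhibitor of plasminogen activators, had 6745 ± 1064, 4604 ± 574, and 3762 ± 615 normalized counts and was called in the same comparison (log2 fold change −0.84, adjusted p = 0.00034). Plgrkt, another plasminogen receptor, named here after its values were seen, had 926 ± 64.3, 1281 ± 105, and 1210 ± 32.4 normalized counts, and its log2 fold changes of 0.47 and 0.39 against α4β7+ passed the adjusted p (0.00117 and 0.00295) but not the fold change.

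**Figure D3:**
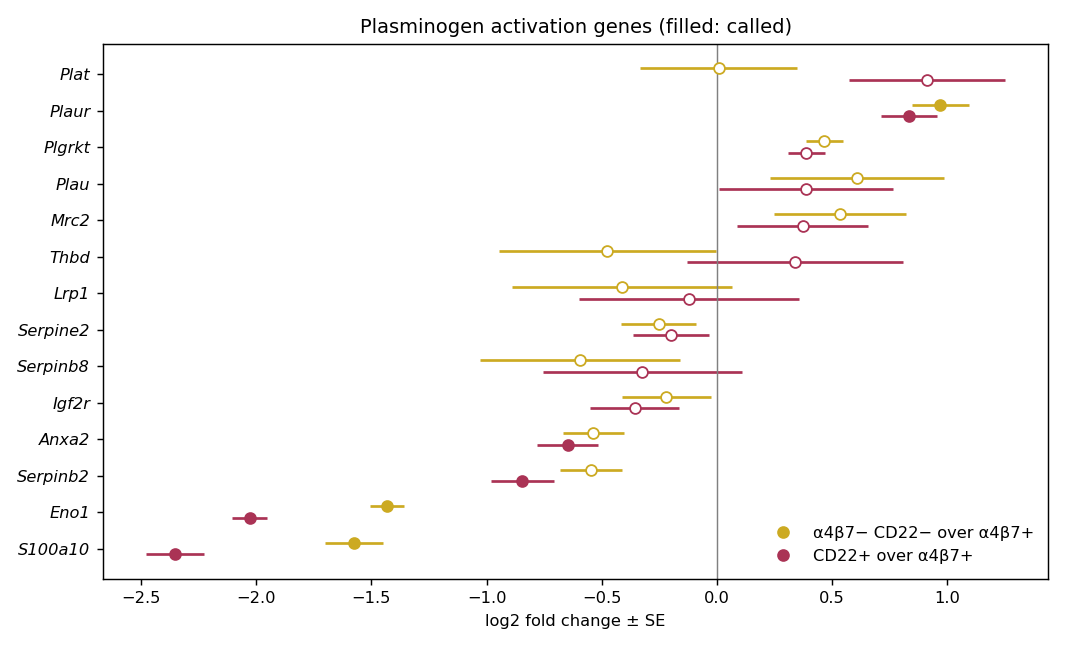
Log2 fold change ± SE (x axis) against α4β7+ eosinophils for the 14 tested genes of plasminogen activation (rows, sorted by the CD22+ estimate), with α4β7− CD22− and CD22+ in separate colours and filled points for called genes. Plaur is filled on the positive side at 0.97 and 0.83, and S100a10 lies lowest at −1.57 and −2.35.

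Mmp25 encodes a metalloproteinase that is anchored to the leukocyte membrane. It lies on the minus strand of chromosome 17, from 23628311 to 23645277. Its normalized counts were 22028, 19437, 21787, and 21911 in α4β7+ replicates 1 to 4, then 19616, 20229, 19777, and 17821 in α4β7− CD22− eosinophils, and 17501, 19261, 15565, and 16697 in CD22+ eosinophils. The CD22+ libraries were all below the α4β7+ libraries, by a small margin, and the other pairs of subsets overlapped. As a share of the summed normalized counts of a library, α4β7+ (0.1185% to 0.138%) and CD22+ (0.109% to 0.1305%) overlapped too. The means were 21291 ± 1240, 19361 ± 1059, and 17256 ± 1555 (SD, n = 4 each). Against α4β7+, the log2 change of −0.31 in CD22+ eosinophils passed the adjusted p (0.00767, 95% interval −0.46 to −0.15) but not the fold change, and it was 0.05 with quantile normalization (adjusted p = 0.602). Between α4β7− CD22− and α4β7+ the log2 fold change was −0.14 (adjusted p = 0.256), and between CD22+ and α4β7− CD22− −0.17 (adjusted p = 0.46).

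Among 25 tested genes of metalloproteinases and of the related ADAM proteases, 1 was lower in α4β7− CD22− than in α4β7+ eosinophils, and 3 were lower and 1 higher in CD22+ eosinophils, with list medians of −0.06 and 0.06 on the log2 scale. The gene lower in both was Mmp9, a gelatinase, which had 20009 ± 1684, 12642 ± 1081, and 9947 ± 910 normalized counts (log2 fold changes −0.66 and −1.01, adjusted p = 8.59e-05 and 6.77e-07). With quantile normalization the first of these did not reach the fold change, at −0.51. Mmp8, a collagenase named after its values were seen, had 34.8 ± 14.8 and 4.98 ± 4.13 normalized counts in α4β7+ and CD22+ eosinophils (log2 fold change −2.71, adjusted p = 0.0014). Mmp16 had 179 ± 33.0 and 109 ± 19.9 (log2 fold change −0.71), near the threshold at an adjusted p of 0.0442, and was not called in 3 of the other settings, nor without α4β7+ replicate 1, 3, or 4, α4β7− CD22− replicate 2, or CD22+ replicate 1, 2, or 4. Adam28, the gene called higher, had 149 ± 70.1, 221 ± 20.3, and 429 ± 52.5 normalized counts, and CD22+ exceeded α4β7+ by 1.62 on the log2 scale (adjusted p = 0.000262). Adam8 and Adam19, named after their values were seen, were not called in any of the 3 comparisons, with means of 13476, 14123, and 12725 normalized counts for Adam8 and of 21506, 27038, and 24976 for Adam19.

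Timp2, on the minus strand of chromosome 11 from 118301069 to 118355740, encodes a secreted inhibitor of metalloproteinases that also takes part in the activation of pro-MMP2. Its normalized counts were 543, 646, 510, and 426 in α4β7+ replicates 1 to 4, then 396, 383, 372, and 271 in α4β7− CD22− eosinophils, and 428, 307, 412, and 328 in CD22+ eosinophils. The α4β7+ libraries were all above the α4β7− CD22− libraries, and the lowest α4β7+ library fell just within the range of CD22+. The means were 531 ± 91.0, 356 ± 57.0, and 369 ± 60.3 (SD, n = 4 each). Timp2 passed the adjusted p against α4β7+ eosinophils in both comparisons but not the fold change, with a log2 fold change of −0.58 in α4β7− CD22− (95% interval −0.92 to −0.23, adjusted p = 0.0249) and −0.52 in CD22+ eosinophils (95% interval −0.87 to −0.18, adjusted p = 0.0307). It lay so close to the threshold that it was called in the first of these with rescaling by the 75th percentile and without α4β7+ replicate 3 or 4 or α4β7− CD22− replicate 1, 2, or 3, and in the second without α4β7+ replicate 4 or CD22+ replicate 1.

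Timp1, the other inhibitor of the set, on chromosome X from 20870166 to 20874735, was at 0 in 7 of the 12 libraries. It was above the floor of 3 reads in 1 α4β7+ library, at 7.01 normalized counts, and in 1 CD22+ library, at 3.14. Its level was therefore not distinguishable between subsets, and no fold change is given. Of the 5 genes of metalloproteinase inhibitors, 4 were tested and none was called in any comparison by limma, and Timp2 was the 1 that had an unadjusted p under 0.05, in both comparisons with α4β7+ (0.0028 and 0.00549). Per kb of transcript, Mmp25 exceeded Timp2 by a factor of 33.8 ± 7.20, 45.3 ± 5.82, and 39.4 ± 9.26 in the 3 subsets, ranges that overlapped.

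Hbegf and Areg encode membrane-bound ligands of the EGF receptor that are released by the protease ADAM17. Hbegf, the heparin-binding member, had 932, 858, 1375, and 1116 normalized counts in α4β7+ replicates 1 to 4, then 698, 641, 727, and 730 in α4β7− CD22− eosinophils, and 440, 486, 571, and 348 in CD22+ eosinophils. No 2 subsets overlapped. The means were 1070 ± 231, 699 ± 41.4, and 461 ± 93.0 (SD, n = 4 each). Hbegf was 2.31-fold lower in CD22+ than in α4β7+ eosinophils (log2 fold change −1.21, 95% interval −1.55 to −0.88, adjusted p = 4.87e-05). In α4β7− CD22− eosinophils it was 1.51-fold lower than in α4β7+, just past the threshold (log2 fold change −0.59, 95% interval −0.93 to −0.26, adjusted p = 0.0194).

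That call for Hbegf was lost with no filter on low values (adjusted p = 0.105), with quantile normalization, and without α4β7+ replicate 3 (log2 fold change −0.46, adjusted p = 0.0604), α4β7+ replicate 4 (adjusted p = 0.051), or α4β7− CD22− replicate 2 (adjusted p = 0.0571). The second step, from α4β7− CD22− to CD22+, had a similar size for Hbegf and did not pass the adjusted p (log2 fold change −0.62, 95% interval −0.95 to −0.28, adjusted p = 0.0867). The difference between the log2 changes of both steps was −0.03 (95% interval −0.61 to 0.55).

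Areg, the amphiregulin gene, on chromosome 5 from 91139599 to 91148432, was near the bottom of what could be tested. It ranged from 15.8 to 27.8 normalized counts in α4β7+, from 5.47 to 22.3 in α4β7− CD22−, and from 11.8 to 23.8 in CD22+ eosinophils, and all subsets overlapped. The means were 20.3 ± 5.32, 14.8 ± 7.21, and 15.8 ± 5.51, and the interval of the log2 fold change between CD22+ and α4β7+ ran from −1.32 to 0.59. Of 20 tested genes of EGF family ligands, receptors, and sheddases, Hbegf was the 1 called, in both comparisons with α4β7+, and the list medians were −0.27 and −0.12. Adam17, the sheddase, had means of 1216, 1184, and 1166 normalized counts.

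The order of the 10 genes by level can be read per kb of their longest protein-coding transcript, a rough allowance for length. The genes have from 1 (Areg) to 17 (Fn1) annotated transcripts, and which of these were expressed was not tested. In α4β7+ eosinophils Thbs1 was highest, at a mean of 5771 normalized counts per kb, followed by Mmp25 at 4702 and Plaur at 4021. In α4β7− CD22− eosinophils the order of these genes was Plaur at 7891, Mmp25 at 4276, and Thbs1 at 1821, and in CD22+ eosinophils it was Plaur at 7205, Mmp25 at 3811, and Thbs1 at 1043. The ratio of Thbs1 to Plaur per kb was 1.44 ± 0.0778 for α4β7+, 0.234 ± 0.0291 for α4β7− CD22−, and 0.145 ± 0.00854 for CD22+ (SD, n = 4 each), so that the order reversed in every library outside α4β7+. Thbs1 also exceeded Mmp25 per kb in every α4β7+ library (ratio 1.12 to 1.35) and was below it in every other (0.248 to 0.466). Hbegf followed these, at 451, 294, and 194 normalized counts per kb in α4β7+, α4β7− CD22−, and CD22+ eosinophils, and Timp2 came next. Fn1 and Plau, next in order, were close to each other, at 28.4 and 27.5 per kb in CD22+ eosinophils and differed by less than their SDs per library. Areg, Vcan, and Timp1 were lowest in every subset.

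**Figure D4:**
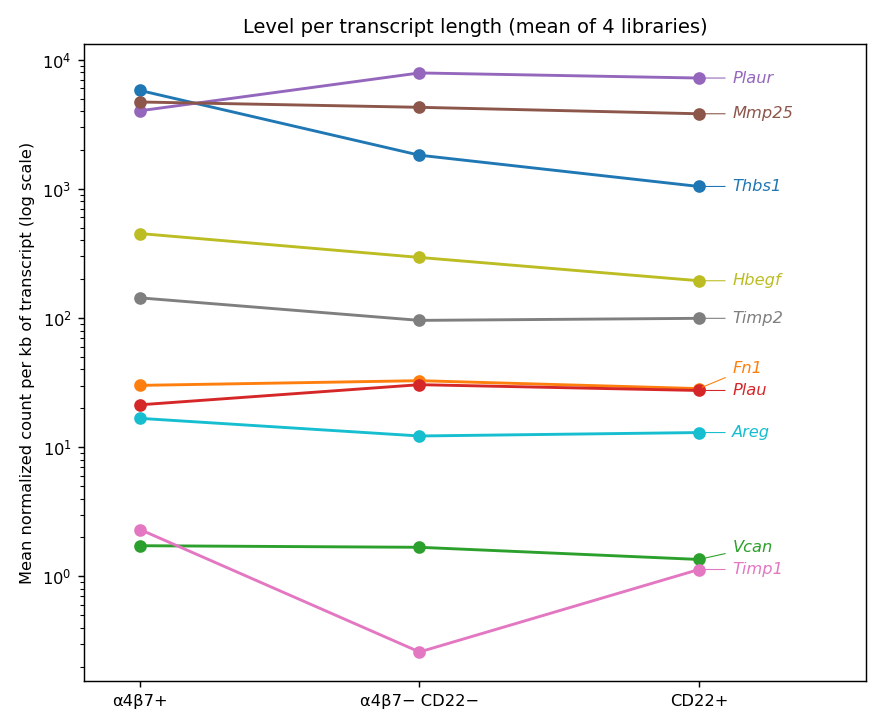
Mean normalized count per kb of longest protein-coding transcript (y axis, log scale) of the 10 genes in the 3 subsets (x axis), each point the mean of 4 libraries. Thbs1 moves from the highest level, 5771, in α4β7+ to 1043 in CD22+ eosinophils, below Plaur and Mmp25.

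Genes that can receive the proteins above, among them integrins and thrombospondin receptors, formed a list with 27 genes tested. Of these, 1 was lower in α4β7− CD22− than in α4β7+ eosinophils, 3 were in CD22+, and none was higher, with list medians of −0.24 and −0.26. Itgb1, the β1 integrin chain of fibronectin receptors, had 3779 ± 238, 2007 ± 196, and 1880 ± 142 normalized counts (log2 fold changes −0.92 and −1.01 against α4β7+, adjusted p = 3.56e-06 and 5.98e-07). Itgb3, the β3 chain that pairs with the αv chain, had 1872 ± 237, 1259 ± 95.6, and 750 ± 49.5, and was called between CD22+ and α4β7− CD22− as well (log2 fold change −0.74, adjusted p = 0.00119). Cd9, a tetraspanin that associates with pro-HB-EGF, had 7742 ± 346 and 5026 ± 313 in α4β7+ and CD22+ eosinophils (log2 fold change −0.62, adjusted p = 1.05e-05), and it did not reach the fold change with quantile normalization or without CD22+ replicate 3. Cd47, the thrombospondin receptor named here after its values were seen, was not called (means of 2859, 2438, and 2314 normalized counts).

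In the TGF-β pathway, 28 genes were tested. In α4β7− CD22− against α4β7+ eosinophils 3 were higher and 2 lower, in CD22+ eosinophils 2 were higher and 3 lower, and the list medians were −0.07 and −0.01. Tgfb2, the TGF-β2 ligand, had 66.8 ± 42.1, 322 ± 103, and 654 ± 204 normalized counts, and was higher in both other subsets than in α4β7+ (log2 fold changes against α4β7+ 2.37 and 3.40, adjusted p = 0.000251 and 4.18e-06). Ltbp2, a latent TGF-β binding protein of the matrix, had 17.96 ± 7.72, 58.7 ± 29.7, and 101 ± 48.9, was higher in both, and lost its call in α4β7− CD22− (adjusted p = 0.0186) with no filter and without α4β7+ replicate 1 or α4β7− CD22− replicate 1. Ltbp1, named after its values were seen, was called higher in α4β7− CD22− (log2 fold change 0.75, adjusted p = 0.0244), a call lost with no filter and in 6 of the 12 fits that left out 1 library, without α4β7+ replicate 2, 3, or 4 or α4β7− CD22− replicate 2, 3, or 4. Smad3, which carries the TGF-β signal to the nucleus, had 858 ± 168, 380 ± 70.0, and 350 ± 74.4 normalized counts, and its corepressor Tgif1 418 ± 78.1, 181 ± 33.0, and 157 ± 38.2, both lower in both comparisons. Bmp2, also named after its values were seen, was lower in CD22+ than in α4β7+ eosinophils (log2 fold change −2.07, adjusted p = 0.00202).

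Of 18 tested genes of other growth and wound factors, a list that includes Hbegf and Areg, 4 were lower in α4β7− CD22− and 4 in CD22+ than in α4β7+ eosinophils, and none was higher, with medians of −0.31 and −0.43. Osm, the cytokine oncostatin M, had 507 ± 80.9, 90.5 ± 16.2, and 49.4 ± 3.26 normalized counts (log2 fold changes −2.48 and −3.32, adjusted p = 3.23e-07 and 4.87e-09). Ptgs2, the inducible enzyme of prostaglandin synthesis, had 6715 ± 1737, 1720 ± 300, and 1026 ± 162 (log2 fold changes −1.94 and −2.69). Vegfa, an angiogenic factor, was called in CD22+ against α4β7+ eosinophils, with 2449 ± 440 against 4432 ± 858 normalized counts (log2 fold change −0.86, adjusted p = 0.000405), and Lif, a cytokine related to Osm that was named after its values were seen, in α4β7− CD22− (log2 fold change −2.42, adjusted p = 0.0223). The call of Lif was lost with no filter and without α4β7+ replicate 3 or α4β7− CD22− replicate 1 or 2. Its mean lay so near the filter that it was tested in only 10 of the 12 fits that left out 1 library. Over all of these lists without the 10 genes of the set, 161 genes were tested, and 3 were higher and 12 lower in α4β7− CD22− and 3 higher and 20 lower in CD22+ than in α4β7+ eosinophils, or 9.32% and 14.3% of the genes, beside 8.05% and 12% of all genes tested. Between CD22+ and α4β7− CD22− eosinophils, 5 were lower and none higher, or 3.11% of the 161 genes, beside 0.603% of all genes tested. This count was 2 with no filter and without α4β7− CD22− replicate 1 or CD22+ replicate 3, and 3 without α4β7− CD22− replicate 2, CD22+ replicate 1, or CD22+ replicate 4. The lists were chosen with earlier results of these data known, so these shares are descriptions and not tests.

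The genes whose log2 values followed Thbs1 most closely over the 12 libraries, of 9176 genes with a mean of at least 100, were Gimap6, Chst13, Cd69, Itpr1, and Tlr13, with Pearson correlations between 0.989 and 0.995. The libraries share their subset, so such a correlation is a description of these libraries. After the subset means were removed, the correlations with Thbs1 lay between 0.391 and 0.683. Cd69, an early activation antigen of leukocytes, had 4366 ± 610, 1136 ± 77.5, and 585 ± 57.1 normalized counts. Chst13, a chondroitin sulfotransferase, had 341 ± 29.8, 98.7 ± 13.8, and 55.9 ± 3.89. Gimap6, a GTPase of lymphoid and myeloid cells, had 1522 ± 80.0, 724 ± 44.8, and 501 ± 40.4. Within the set, the correlations with Thbs1 were 0.90 for Hbegf, 0.82 for Mmp25, 0.71 for Timp2, 0.02 for Fn1, and −0.78 for Plaur.

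Markers of other cells were examined beside these genes. Thbs1 is also made by platelets, and 5 of 10 platelet and megakaryocyte markers had a mean above 10 normalized counts, with a summed level of 663 to 841 in α4β7+, 691 to 1113 in α4β7− CD22−, and 665 to 786 in CD22+ libraries. Their defining genes Gp9, Gp1ba, Gp1bb, and Treml1 had means under 3 normalized counts in every subset. Others of the list were expressed, with means of 531, 677, and 593 for Itga2b, 148, 160, and 78.3 for Ppbp, and 32.8, 28.3, and 29.0 for Gp6 in the 3 subsets, and Ppbp was called, lower in CD22+ than in α4β7+ eosinophils. Clec1b and Pf4 had means of 8.54 to 17.7. The 10 fibroblast markers, which included no called gene in any comparison, summed to 1276 to 1914, 950 to 1866, and 1043 to 3317, and the 12 macrophage markers, none of the 11 tested being called, to 2764 to 3379, 2302 to 3136, and 1998 to 3894. The 12 neutrophil markers summed to 34987 to 44434, 19603 to 23641, and 13824 to 15678, of which Mmp9 and Retnlg made up most, while Elane was at 0 in every library and S100a8, Ly6g, and Camp had means under 3 normalized counts. Of the 7 neutrophil markers tested, Retnlg and Mmp9 were lower and Ngp and Cxcr2 higher in α4β7− CD22− than in α4β7+ eosinophils, and in CD22+ eosinophils S100a9 and Mmp8 were lower in addition. Retnlg, with means of 18828, 6709, and 3053 normalized counts, was also called, lower in the CD22+ subset, between CD22+ and α4β7− CD22−. The 10 T cell and innate lymphoid cell markers summed to 1882 to 2795, 1077 to 1506, and 1591 to 2017. Of these, 4 were lower in α4β7− CD22− than in α4β7+ eosinophils (Cd3e, Cd8a, Il7r, and Gzma, list median log2 fold change −0.66), and Gzma was lower in CD22+ than in α4β7+ eosinophils. The 8 endothelial markers summed to 231 to 544, 232 to 631, and 408 to 1209, and 1 of the 7 tested, Esam, was called in all 3 comparisons, with means of 20.6, 120, and 325 normalized counts, and its call between CD22+ and α4β7− CD22− was lost with no filter. Single markers of dendritic cells (Itgae, lower in α4β7− CD22−), monocytes (F13a1, lower in CD22+), smooth muscle (Myh11, higher in CD22+), and Paneth cells (Defa30, higher in CD22+) were called against α4β7+ eosinophils, and no marker of B, plasma, or mast cells was called. With 1 library left out, the calls of Ppbp and F13a1 were lost in 6 of 12 fits, those of Itgae and Defa30 in 5, those of Il7r and of Gzma in CD22+ in 4, that of S100a9 in 3 of the 11 in which it was tested, that of Myh11 in 2, and those of Cd3e and Cd8a in 1 each, without α4β7− CD22− replicate 3 and α4β7+ replicate 4. All of these calls, and that of Gzma in α4β7− CD22−, were also lost with no filter. Those of Ppbp, Defa30, and Gzma in CD22+ were lost without the trend, and those of Ppbp, F13a1, S100a9, and Il7r with only the libraries compared. The 13 epithelial markers summed to 4011 to 8772, 2959 to 6106, and 1959 to 9650, with none called. The part of other cells in the differences above was not tested.

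The cells were released by enzymatic digestion before the sort, and genes that respond to dissociation also differed between subsets. Of 32 such genes tested, 9 were lower and 1 higher in α4β7− CD22− than in α4β7+ eosinophils, and 11 were lower and 1 higher in CD22+ eosinophils, with medians of −0.09 and −0.25. That is 31.2% and 37.5% of them, beside 8.05% and 12% of all genes tested. This list too was chosen with earlier results of these data known, so the shares are a description. The largest falls were those of Dusp2, a phosphatase of MAP kinases, with 807 ± 176, 108 ± 23.7, and 76.4 ± 17.2 normalized counts (log2 fold changes against α4β7+ −2.88 and −3.38), and of Ier3, an immediate early gene, with 154 ± 37.7, 24.96 ± 7.05, and 16.8 ± 9.14 (−2.58 and −3.21). Jun had 5462 ± 477, 2866 ± 534, and 1852 ± 232 normalized counts and Zfp36 30020 ± 3301, 14207 ± 1094, and 9942 ± 1126, while Egr2 was higher, with 258 ± 89.6, 649 ± 153, and 845 ± 238. Jun was the only gene of the list called between CD22+ and α4β7− CD22− (log2 fold change −0.62, adjusted p = 0.0361), a call lost in 5 of the 10 other settings and in 7 of the 12 fits that left out 1 library, kept only without α4β7+ replicate 2, 3, or 4, α4β7− CD22− replicate 4, or CD22+ replicate 2. The level of Fos was 31867 ± 3725, 39660 ± 2337, and 29940 ± 3374 and was not called in any of the 3 comparisons. Their part in the levels of Thbs1, Plaur, and Hbegf was not tested.

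Reads could be shared with other genes for some of the set. The annotation places Gm29233 antisense to Thbs1, and 2.68% of the 31-base stretches of Thbs1 transcripts also occur in another gene, most of them in Gm29233. For Fn1 the share was 3.89%, for Mmp25 1.10%, and for Plau and Plaur under 0.5%, and it was 0 for Timp1, Timp2, Hbegf, Areg, and Vcan. Cep295nl, a gene on the same strand within Timp2, had means of 11.8, 23.1, and 17.97 normalized counts.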

How the data were processed

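RNA of 12 libraries, 4 per subset, was sequenced from 3 ng of total RNA with a stranded kit. Per the submitters' processing notes and the study's methods, reads were trimmed with Trimmomatic 0.39, pseudoaligned to mm10 (GRCm38) with kallisto 0.46.1, and normalized with DESeq2 1.38.2. The signal unit deposited by the authors is thus a DESeq2-normalized count, and the values are not whole numbers, so count models were not run. Every column was matched to a library by its label. The table also pairs 26372 of the 36047 Ensembl identifiers with symbols, and 35968 identifiers were found in the GENCODE M21 annotation used for coordinates and lengths.

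Genes with a mean above 10 were tested on log2(normalized count + 1) with limma 3.58.1 in R 4.3.3, with all 12 libraries in the model and a variance trend, and Benjamini-Hochberg adjustment per comparison. Genes were called at a fold change of at least 1.5 and an adjusted p of at most 0.05. Adding 1 shrinks the fold changes of low genes. The difference between the log2 changes of both steps was added after seeing the data. On simulated data for CD22+ against α4β7+ with 15249 genes, 64% of genes changed by 1 log2 unit and 82% of those changed by 2 were called, and 7 of 15049 unchanged genes. In that simulation only 200 genes changed, in CD22+ alone and with independent noise. In the data 12% of genes were called in this comparison, so these rates need not hold there.

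The 10 genes and the lists were chosen with earlier results of these data known. A gene of a list is not reported here and was left out of the counts of the lists. Named besides them are, per list, up to 4 called genes with the largest log2 fold change between CD22+ and α4β7+ at a mean of at least 50, genes called between CD22+ and α4β7− CD22−, and the 5 genes most correlated with Thbs1. Other list genes were named after their values were seen, and markers of cell types where they were called or define the type. Alternatives were quantile normalization, rescaling by the 75th percentile, a pseudocount of 0.1 or of 10, a filter at 50 or none, no trend, the adjusted p alone, only the libraries compared, the replicate number as a block, and each library left out. Libraries of the same number deviated together from their subset means, by correlation of deviations, at 0.135 to 0.203 between CD22+ and α4β7− CD22−, where all 4 pairs were above 0.1, and at −0.0586 to 0.182 in the other comparisons. The sources used here do not say that a number marks a shared pool of mice. Python 3.11.15 with pandas 2.3.3 was used for the tables, and matplotlib 3.10.9 for the figures. Promoter windows came from RefSeq on GRCm38.p6, and no raw reads were used.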

Additional observations from a re-analysis of the deposited data

Results flagged for a closer look

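In 12 of 108 groups of 4 libraries that were examined, the highest or lowest library stood apart from the other 3 by Dixon's test, which chance alone gives in about 1 in 20 groups. Of the 10 remodelling genes, this applied to Timp1 in α4β7+ replicate 4, at 7.01 normalized counts where the next library had 1.13, and in α4β7− CD22− replicate 2, at 0.918 where the other libraries had 0. The latter is about 1 read, below the floor of 3 reads, and with 3 libraries at 0 any other value stands apart by construction, so that it says nothing of this library. Mmp25 was lowest in α4β7+ replicate 2, at 19437 against 21787 in the next library, and Fn1 was highest in α4β7− CD22− replicate 4, at 390 against 233.

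Among the other genes named, α4β7+ replicate 4 was lowest for Lgals3, at 2145 against 2653 normalized counts, and α4β7+ replicate 1 highest for Osm, at 628 against 477. In α4β7− CD22− eosinophils, replicate 1 was highest for Mmp9, at 14243 against 12241, and replicate 4 was lowest for Zfp36, at 12577 against 14569, and for Jun, at 2073 against 3029. In CD22+ eosinophils, replicate 4 was highest for Eno1, at 2474 against 2183, and replicate 3 was highest for Tgif1, at 214 against 146, and for Smad3, at 460 against 320 normalized counts.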

How the results depend on the processing

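Thbs1 in all 3 comparisons and Plaur in both comparisons with α4β7+ were called under each of the 10 other settings and in each of the 12 fits that left out 1 library. The difference between the log2 changes of both steps was not followed over these settings and fits. For the 9 genes tested, 588 values were recomputed, of which 553 kept their direction and side of the threshold, 5 lost the call, 11 gained it, and 19 reversed. Of 1716 values of the 26 list genes that the naming rule gives, 1629 kept both, 59 lost the call, 25 gained it, and 3 reversed. For 34 other list and marker genes, recomputed only in the comparisons in which they were called, 79 of 1153 values lost the call. On the adjusted p alone, 5 of the 9 genes were called between CD22+ and α4β7+, Timp2 and Mmp25 in addition. Of the 10 genes, 1 was below the filter, 0 without a filter, and 3 with a filter at 50. With quantile normalization the log2 fold change of Mmp25 reversed to 0.065 (α4β7− CD22− over α4β7+) and 0.0501 (CD22+ over α4β7+). Of the 5 genes most correlated with Thbs1, between 3 and 5 were among its closest 5 when 1 library was left out, with 3 without α4β7+ replicate 3, α4β7− CD22− replicate 4, CD22+ replicate 1, or CD22+ replicate 3.

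With 1 library left out, the log2 fold changes that reversed were all of genes that were not called in that comparison. In the order α4β7− CD22− over α4β7+, CD22+ over α4β7+, and CD22+ over α4β7− CD22−, they ranged for Vcan from −1.07 to 0.28, from −1.12 to 0.0072, and from −0.85 to 0.51. For Fn1 they ranged from −0.10 to 0.23 and from −0.29 to 0.10 in the first and second comparisons. In the third comparison they ranged for Timp2 from −0.0706 to 0.14, for Plau from −0.37 to 0.11, for Areg from −0.20 to 0.42, and for Mmp16 from −0.20 to 0.17. The cause was not tested. Near the fold change of 1.5, Serpinb2 gained a call between α4β7− CD22− and α4β7+ in 4 of the 12 leave-outs and Itgb3 in 2, and between CD22+ and α4β7− CD22− the call of Osm (adjusted p = 0.0285) was lost with no filter, with only the libraries compared, without α4β7− CD22− replicate 1, 2, or 3, and without any of the CD22+ replicates in turn.

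With a block for the replicate number, 3, 3, and 1 of the 9 genes were called in the 3 comparisons, as without it, and 16, 23, and 5 of the list genes against 15, 23, and 5. Over all genes, 1254, 1843, and 100 were called with the block against 1228, 1829, and 92, and Mmp16 gained a call between α4β7− CD22− and α4β7+ (adjusted p = 0.0399). With the block, the monocyte marker F13a1 lost its call between CD22+ and α4β7+ (limma adjusted p = 0.0552). On deviations from the subset means, 11 of 12 libraries correlated best with a library of their own number. On the adjusted p alone, 2265, 3223, and 164 of all genes and, in the first and second comparisons, 28 and 36 list genes passed. Between CD22+ and α4β7− CD22−, 36 genes were called with no filter and 54 without the trend, and the list genes called were 2 with no filter and 2 to 7 with 1 library left out, with 2 without α4β7− CD22− replicate 1 or CD22+ replicate 3, and 3 without α4β7− CD22− replicate 2, CD22+ replicate 1, or CD22+ replicate 4. No scaling moved the median of all genes by over 0.1 on the log2 scale.

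Depth limits Timp1, whose subset means lie under the floor of 3 reads. For Vcan, Areg, and Plau the spread between libraries was wide, and its cause was not tested. Each library is a pool of 2 mice, the subsets differ in surface phenotype and, by the study's reading, in age, and these cannot be told apart from what the digestion and sort did to each subset.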
